A study of Sus scrofa with 8 samples.

Results

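The respiratory chain subunit genes described here were the 79 protein-coding genes on pig chromosomes 1 to 18 whose RefSeq symbol begins with NDUFA, NDUFB, NDUFC, NDUFS, NDUFV, SDH, UQCR, COX4 to COX8 or ATP5, out of 15689 such genes with a symbol. Of the 79 genes, 66 encode subunits, and 13 carry the same prefixes but encode assembly factors or related proteins: 8 NDUFAF genes, 3 SDHAF genes, ATP5S and ATP5SL. The table of genes uses older symbols for the ATP synthase, so that ATP5B is the present ATP5F1B and ATP5G1 to ATP5G3 are ATP5MC1 to ATP5MC3. The stem cells were pgEpiSC, pluripotent stem cell lines taken from the pig epiblast before gastrulation at embryonic day 10. They were set against pEF, pig embryonic fibroblasts from embryonic day 30. No treatment or genetic change is given for either type.

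Chromatin immunoprecipitation for histone H3 acetylated at lysine 27 (H3K27ac), a mark of active promoters and enhancers, was sequenced in 2 libraries of each type, numbered 1 and 4 for pgEpiSC and 1 and 2 for pEF, each with an input library. The labels do not say whether the libraries of a type came from separate cultures or animals, so p-values measure only the spread between these libraries. The files list islands, which are stretches of enriched windows, with their ChIP and input reads. A gene was assigned every island within 2 kb of either of its ends, called here its end islands, and the whole length and all reads of those islands were counted. Reads are given as RPM, the ChIP reads of a gene's end islands for every 1000000 ChIP reads in the library's islands, and density as RPM per kb. In bulk chromatin, more cells with the mark and more mark per cell cannot be told apart.

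The respiratory chain sits in the inner mitochondrial membrane. Complex I takes electrons from NADH and complex II from succinate, complex III passes them to cytochrome c, complex IV hands them to oxygen, and the ATP synthase uses the proton gradient that results. Nearly all of its subunits are encoded in the nucleus, most of them by genes that every cell uses, while a few exist as isoforms for particular tissues. Cultured pluripotent cells are known for relying strongly on glycolysis, with differences between pluripotent states.

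The libraries held 64620 and 74208 islands in pgEpiSC and 62261 and 57790 in pEF, with 29679982 and 38230571 ChIP reads in islands in pgEpiSC and 42444995 and 46383051 in pEF. Islands were longer and weaker in pgEpiSC: the median island was 4.8 and 4.2 kb long in pgEpiSC, against 3.0 and 3.2 kb in pEF, and the median deposited fold over input was 1.80 and 1.67 in pgEpiSC, against 3.47 and 3.46 in pEF. Lengths, densities and enrichments are therefore given beside those of all genes. Among the 6 markers of each type, end islands at CDH1, LIN28A, OTX2 and SALL4 were listed in pgEpiSC only, and those at COL1A2, COL3A1 and TWIST1 in pEF only. POU5F1 had 46.8 and 26.8 kb in pgEpiSC and 1.8 and 2.0 kb in pEF, whereas COL1A1 had 3.0 and 4.4 kb in pgEpiSC and 63.2 and 63.4 kb in pEF. THY1, a fibroblast surface marker, had 7.4 and 0 kb in pgEpiSC and 9.2 and 7.8 kb in pEF.

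Nearly every respiratory chain gene was acetylated in both cell types. End islands were listed in all 4 libraries for 78 of the 79 genes, or 98.7%, while 68.6% of all genes had them in all 4. No respiratory chain gene had end islands in pgEpiSC only, as 7.41% of all genes did, none in pEF only, as 4.28% did, and none lacked them in every library, as 9.52% did. The exception was COX8H, a gene of the cytochrome c oxidase subunit VIII family, whose only end island was 3.6 kb long with 233 ChIP reads in pgEpiSC 4. When islands under 2-fold over input were left out, 70 genes, or 88.6%, still had end islands in all 4 libraries, as 49.3% of all genes did. COX7A1 and NDUFS7 then had them in pEF only, as 12.4% of all genes did, and ATP5E, NDUFA3, NDUFA11, NDUFA4L2, NDUFAF8 and NDUFV3 kept none in 1 of the pgEpiSC libraries.

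The 78 genes had short end islands in pEF and longer ones in pgEpiSC. The median summed length was 6.4 and 6.0 kb in pgEpiSC and 3.2 kb in each pEF library, beside 7.4 and 7.2 kb in pgEpiSC and 4.6 and 4.4 kb in pEF over all genes. Lengths ran from 1.8 kb in both pgEpiSC libraries to 113.2 kb in pgEpiSC 1 and 100.8 kb in pgEpiSC 4, against 1.4 to 38.4 kb in pEF 1 and 1.2 to 31.2 kb in pEF 2. End islands of more than 10 kb were found at 25 and 23 genes in pgEpiSC and at 7 and 6 genes in pEF. The share of all genes above that length was not counted. The order of the genes was only loosely shared between types: across the 78 genes, which share libraries and depth, Spearman's rho of mean length in pgEpiSC with that in pEF was 0.37, while between libraries it was 0.75 within pgEpiSC and 0.82 within pEF.

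**Figure D1:**
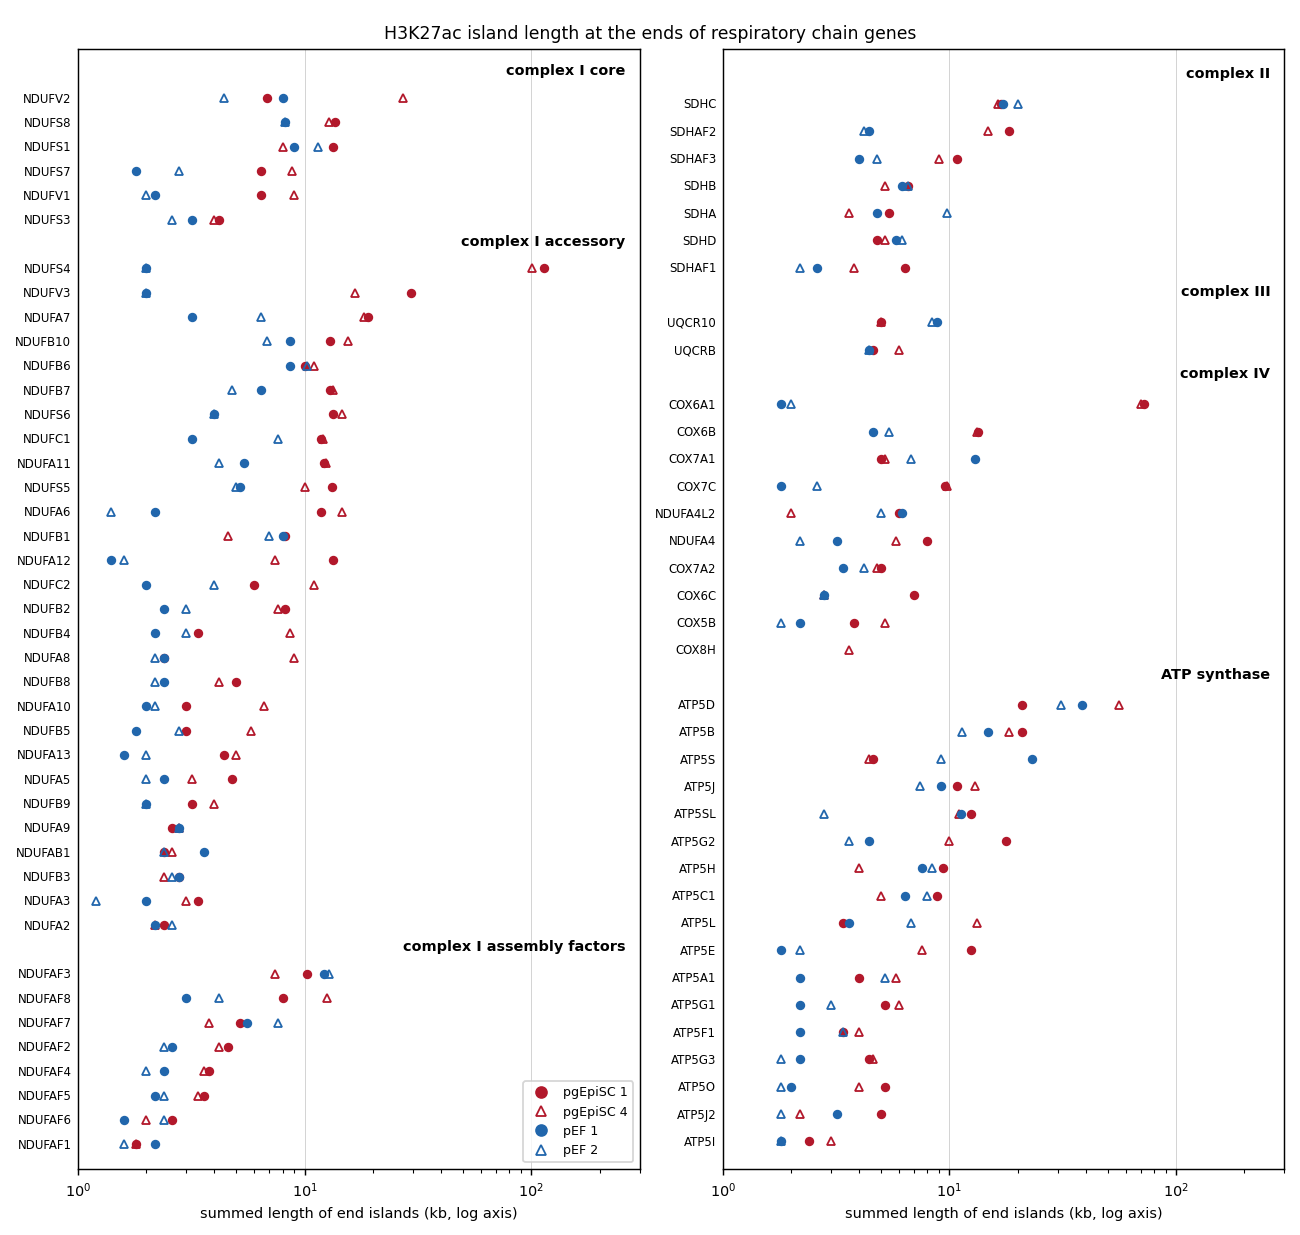
Summed length of end islands (kb, log axis) for the respiratory chain genes, 1 of which is not shown, grouped by complex and ordered by mean length, with 1 point for each library (red, pgEpiSC 1 and 4; blue, pEF 1 and 2). NDUFS4 and COX6A1 reach 113.2 and 71.8 kb in pgEpiSC 1 while staying at 2.0 and 1.8 kb in pEF 1, and most other genes lie below 20 kb in both types.

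Reads in end islands were higher in pgEpiSC at 21 of the 78 genes and lower at 4, and 53 did not pass (edgeR quasi-likelihood test, Benjamini-Hochberg over all genes, adjusted p under 0.05). Over all 10761 genes tested, the background was 20.3% with more reads in pgEpiSC and 19.8% with more in pEF. The 21 genes are 26.9% of those tested, a share near the background, and the 4 genes are 5.13%; the set was not tested against other genes. The median log2 fold change of pgEpiSC over pEF was 0.32 for the respiratory chain genes and 0.00 for all genes, with 54 of the 78 above 0. Leaving out a library lowered the counts, and the share of all genes called fell in both directions. Without pgEpiSC 1, pgEpiSC 4, pEF 1 or pEF 2 in turn, 12, 11, 7 and 10 genes were higher in pgEpiSC and 0, 0, 0 and 2 were lower. In those 4 fits 14.8%, 14.0%, 11.5% and 11.1% of all genes were higher in pgEpiSC, beside 15.4%, 14.1%, 8.97% and 12.8% of the respiratory chain genes. COX6A1, NDUFA6, NDUFB10, NDUFS4 and NDUFV3 were called higher in each of those 4 fits. COX6A1, NDUFB10 and NDUFS4 were also called in each of the other 8 alternatives of islands, distance, filter, scaling and tool.

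**Figure D2:**
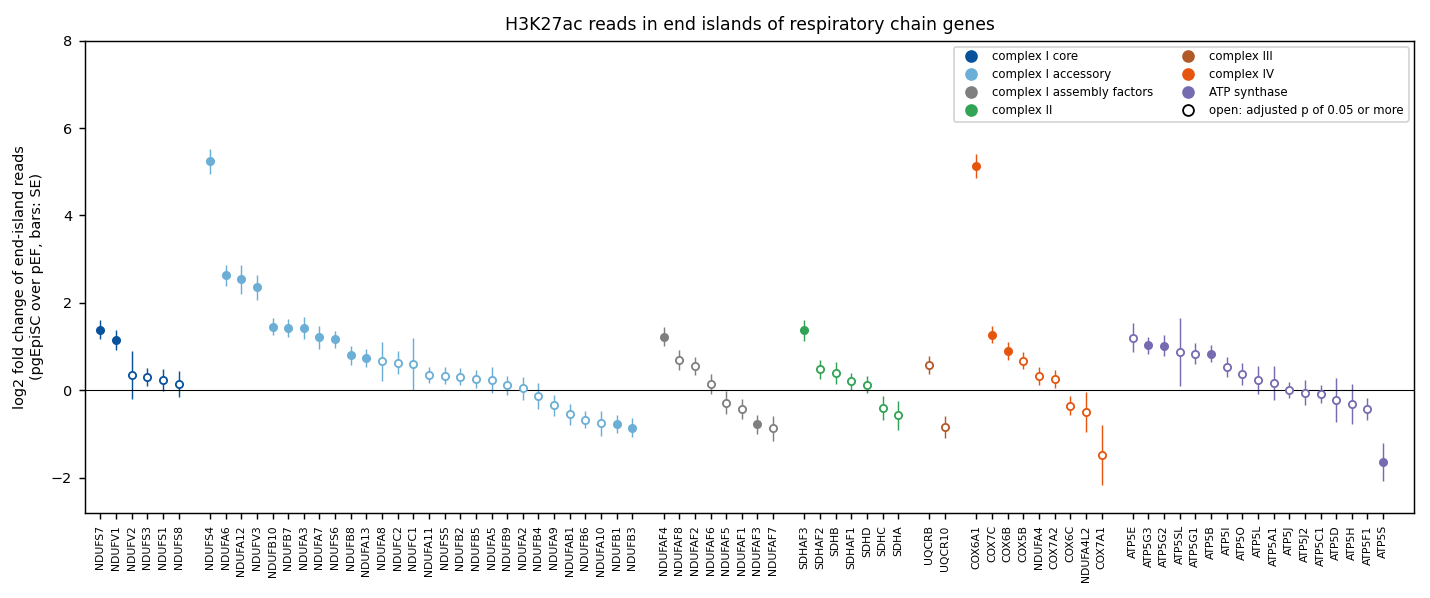
Log2 fold change of end-island ChIP reads, pgEpiSC over pEF, for the genes tested, 1 of which is not shown, by complex (bars, SE of the edgeR fit from 2 libraries of each type; filled points, adjusted p under 0.05). NDUFS4 at 5.24 and COX6A1 at 5.13 stand above the other genes, and ATP5S at -1.65 is the lowest filled point.

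Complex I, the largest of the complexes, had most of the genes tested and supplied most of the higher genes. Over all genes tested, 20.3% were higher in pgEpiSC and 19.8% lower. Of the 7 core subunits in the set, which carry out electron transfer, 2 (28.6%) were higher in pgEpiSC and none lower. Of the 28 accessory subunits, 11 (39.3%) were higher and 2 (7.14%) lower. Of the 8 assembly factors, 1 (12.5%) was higher and 1 (12.5%) lower. The median log2 fold changes were 0.30, 0.48 and -0.07 for core subunits, accessory subunits and assembly factors.

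Among the core subunits, NDUFS7, which holds the last iron-sulfur cluster before ubiquinone, had 20.5 and 22.5 RPM in pgEpiSC and 8.22 and 8.77 in pEF. NDUFV1, which binds NADH and the flavin, had 20.2 and 24.6 RPM in pgEpiSC and 10.6 and 10.3 in pEF. Both were higher in pgEpiSC. The log2 fold change was 1.39 ± 0.22 (SE, edgeR adjusted p = 0.0137) at NDUFS7 and 1.15 ± 0.22 (adjusted p = 0.021) at NDUFV1. In both pgEpiSC libraries the NDUFS7 islands held an end of LOC100511862 and the NDUFV1 islands an end of LOC100525027. The pEF islands of these genes held no other coding gene's end. NDUFV1 had islands at both ends in both pgEpiSC libraries and at 1 end in both pEF libraries. The island at NDUFS7 was weak in pgEpiSC, at 1.92- and 1.58-fold over input, against 6.91- and 3.59-fold in pEF. NDUFV1 was not called with windows of 1 kb in place of 2 kb, where its log2 fold change was 0.08 (adjusted p = 0.781), nor with islands of at least 2-fold only (0.78, adjusted p = 0.0996). NDUFS1, NDUFS3, NDUFS8 and NDUFV2, also core subunits, had log2 fold changes between 0.14 and 0.35 and did not pass.

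NDUFS4, an accessory subunit of the NADH-oxidising arm, had the largest difference in reads of the 78 genes. Its end islands held 489 and 395 RPM over 113.2 and 100.8 kb in pgEpiSC, and 13.7 and 10.5 RPM over 2.0 and 2.0 kb in pEF. Both pgEpiSC libraries lay far above both pEF libraries, and the log2 fold change of reads was 5.24 ± 0.29 (SE, edgeR adjusted p = 0.00509). In pgEpiSC 1 one island ran over 61.8 kb, at chromosome 16, 32824601 to 32886400, and began 49.8 kb outside the lower-coordinate end of the gene. A second island of 51.4 kb, at 32962401 to 33013800, covered the other end. In pEF 1 the end island was the 2.0 kb stretch from 32874001 to 32876000, which lies inside the long pgEpiSC island. Coordinates are those of the island lists, counted from 1, and their genome build is not named in the labels or lists. No end of another protein-coding gene lay inside the NDUFS4 end islands, and FST, the gene of the activin antagonist follistatin, was the next protein-coding gene beyond the lower end.

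COX6A1, the widely expressed isoform of a complex IV subunit that has a separate muscle isoform, was the other gene with islands of this size. It had 365 and 368 RPM over 71.8 and 69.6 kb in pgEpiSC, and 10.2 and 11.3 RPM over 1.8 and 2.0 kb in pEF. The log2 fold change of reads was 5.13 ± 0.27 (SE, edgeR adjusted p = 0.00509). COX6A1 lay at the edge of its long island: in pgEpiSC 1 it spanned chromosome 14 from 40342801 to 40411400, reached 65.8 kb outside the lower-coordinate end of the gene and held an end of MSI1, the gene of the RNA-binding protein Musashi 1. The length call was lost when only the island bases inside the 2 kb windows were counted (log2 fold change 0.94, limma adjusted p = 0.056). It was lost too when island bases were counted over the gene body with flanks of 10 kb (0.33, adjusted p = 0.319). Of the 68.6 kb of that island, 2.8 kb lay above the lower-coordinate end of the gene.

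**Figure D3:**
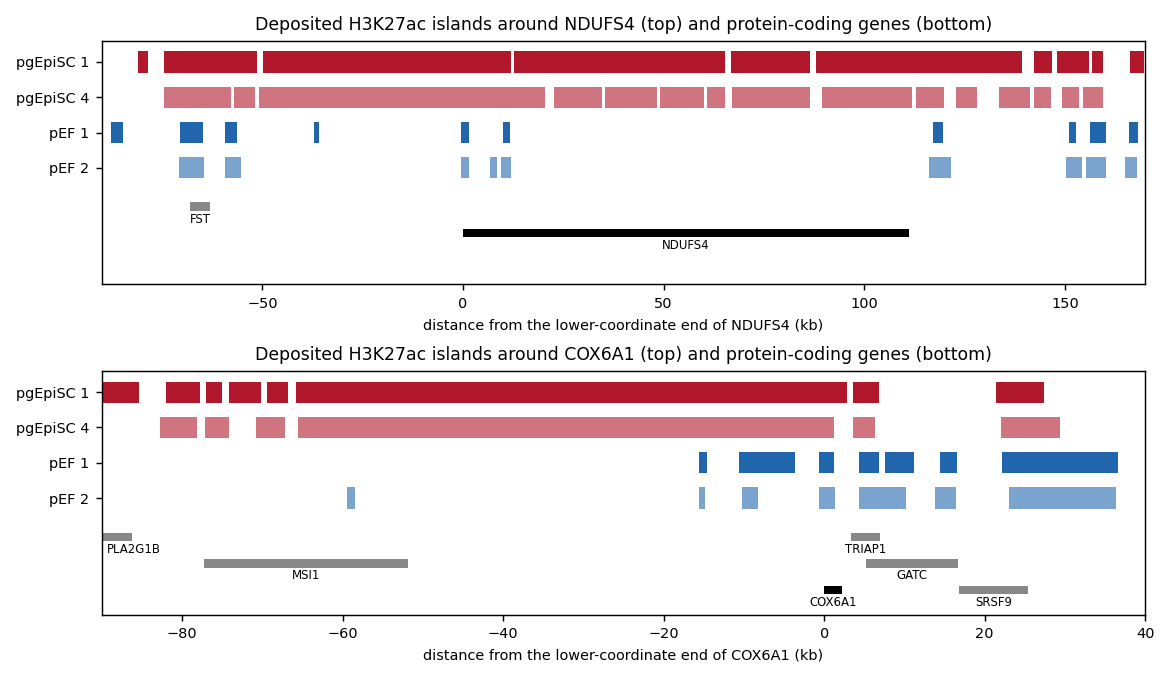
Deposited islands in each library around NDUFS4 (upper panel) and COX6A1 (lower panel), against distance from the lower-coordinate end of each gene (kb), with protein-coding genes below. In both pgEpiSC libraries (red) an island of more than 60 kb covers the gene end and extends away from the gene, while the pEF libraries (blue) have an island of 1.8 to 2.0 kb at that end.

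NDUFA6, NDUFA12 and NDUFV3, also accessory subunits, exceeded a log2 fold change of 2. NDUFA6 had 48.3 and 54.4 RPM in pgEpiSC and 8.05 and 9.11 in pEF, NDUFA12 had 32.9 and 20.5 in pgEpiSC and 4.46 and 4.99 in pEF, and NDUFV3 had 66.3 and 43.8 in pgEpiSC and 11 and 11.2 in pEF. Their log2 fold changes were 2.63 ± 0.23, 2.54 ± 0.33 and 2.35 ± 0.28 (SE, edgeR adjusted p = 0.00541, 0.00903 and 0.00808). NDUFA12 was not called without pEF 1 (2.39, adjusted p = 0.0511). NDUFA12 and NDUFV3 are subunits of the NADH-oxidising arm, and NDUFA6 is a small LYR-motif protein of the arm that faces the matrix. All 3 had islands at both ends in both pgEpiSC libraries and at 1 end in both pEF libraries. With 1 kb windows the NDUFA6 difference was 0.47 (adjusted p = 0.198), and its pgEpiSC islands held ends of FAM109B and SMDT1 in both libraries. At NDUFV3, enrichment over input was 1.95- and 1.90-fold in pgEpiSC and 9.40-fold in each pEF library.

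NDUFB10, a subunit of the membrane arm, was the third gene called in every fit. It had 66.6 and 70.2 RPM in pgEpiSC and 28.7 and 23.2 in pEF, a log2 fold change of 1.46 ± 0.19 (SE, edgeR adjusted p = 0.00969). Both its lengths and its densities were above those of pEF in both pgEpiSC libraries: 13.0 and 15.6 kb in pgEpiSC against 8.6 and 6.8 kb in pEF, and 5.12 and 4.5 RPM per kb in pgEpiSC against 3.33 and 3.41 in pEF. Its islands also held ends of the ribosomal protein genes RPS2 and RPL3L in every library. The other accessory subunits called higher were NDUFB7 (1.43), NDUFA3 (1.42), NDUFA7 (1.21), NDUFS6 (1.16), NDUFB8 (0.80) and NDUFA13 (0.73), as log2 fold changes of reads. NDUFB7 and NDUFA7 were not called with 1 kb windows (0.97 and 0.63, adjusted p = 0.235 and 0.0912).

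The accessory subunits that were lower in pgEpiSC, both in the membrane arm, were called by reads and not by length. NDUFB3 had 13.6 and 11.8 RPM in pgEpiSC and 22.7 and 24.8 in pEF, over 2.8 and 2.4 kb in pgEpiSC and 2.8 and 2.6 kb in pEF. NDUFB1, which shares its islands with CPSF2 in all 4 libraries, had 41.0 and 32.5 RPM in pgEpiSC and 67.3 and 63.3 in pEF. The log2 fold changes were -0.86 ± 0.22 and -0.78 ± 0.21 (SE, edgeR adjusted p = 0.0388 and 0.0439), and neither was called with any 1 library left out.

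NDUFA10, a further accessory subunit, had the densest islands of the set in pEF. Its density was 4.36 and 3.08 RPM per kb in pgEpiSC and 15.1 and 12.9 in pEF, where the medians over the 78 genes were 4.07 and 4.04 in pgEpiSC and 5.68 and 5.66 in pEF. Its reads, at 13.1 and 20.3 RPM in pgEpiSC and 30.1 and 28.4 in pEF, did not pass over all islands (log2 fold change -0.75, edgeR adjusted p = 0.103). They did pass when islands under 2-fold were left out (-0.96, adjusted p = 0.0128).

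The assembly factors NDUFAF3 and NDUFAF4, which are known to act together early in complex I assembly, moved in opposite directions. NDUFAF4 had 21.6 and 21.5 RPM in pgEpiSC and 8.97 and 10.02 in pEF, and NDUFAF3 had 49.7 and 41.5 in pgEpiSC and 79.6 and 82.2 in pEF. The log2 fold changes were 1.23 ± 0.22 at NDUFAF4 and -0.78 ± 0.21 at NDUFAF3 (SE, edgeR adjusted p = 0.0173 and 0.0459). NDUFAF4 islands held no end of another coding gene, whereas those of NDUFAF3 held ends of DALRD3 in every library. Neither call held with any 1 library left out, and the other 6 assembly factors ranged from -0.87 to 0.68 and did not pass.

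None of the 4 subunits of complex II, the succinate dehydrogenase that also works in the tricarboxylic acid cycle, passed by reads. SDHA, the flavoprotein, had 22.6 and 19.5 RPM in pgEpiSC and 24.5 and 39.4 in pEF (log2 fold change -0.57 ± 0.33, edgeR adjusted p = 0.233). SDHB, the iron-sulfur subunit, had 30.4 and 22.5 in pgEpiSC and 19.5 and 22.1 in pEF (0.39 ± 0.25, adjusted p = 0.271). The membrane anchors SDHC and SDHD had log2 fold changes of -0.41 ± 0.28 and 0.13 ± 0.19 (adjusted p = 0.288 and 0.614). The lengths of the 4 subunit genes did not pass either, with log2 fold changes between -0.54 and -0.11 in a set whose median was 0.63. SDHAF3, an assembly factor that helps SDHB mature, was higher in pgEpiSC, at 40.9 and 39.4 RPM against 14.0 and 17.9 in pEF (1.37 ± 0.24, adjusted p = 0.0173).

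Complex III was represented by 2 genes, and neither passed by reads. UQCRB, a ubiquinone-binding subunit, had 21.0 RPM in each pgEpiSC library and 13.8 and 15 in pEF (0.59 ± 0.21, edgeR adjusted p = 0.0857). UQCR10 had 21.3 and 19.9 in pgEpiSC and 32.5 and 43.2 in pEF (-0.84 ± 0.26, adjusted p = 0.0627). At both genes the types did not overlap, with pgEpiSC above pEF at UQCRB and below it at UQCR10. The share of all genes without overlap in RPM was not counted. UQCR10 was called by length, at 5.0 kb in each pgEpiSC library against 8.8 and 8.4 kb in pEF (log2 fold change -0.68, limma adjusted p = 0.0492).

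In complex IV, 3 of 9 genes tested (33.3%) were higher in pgEpiSC and none lower, beside 20.3% and 19.8% of all genes. COX7C, whose islands held no other coding gene's end, had 44.1 and 41.2 RPM over 9.6 and 9.8 kb in pgEpiSC and 18 and 18.4 RPM over 1.8 and 2.6 kb in pEF. COX6B, the subunit on the cytochrome c side, had 41.5 and 37.3 RPM in pgEpiSC and 25.1 and 19 in pEF. The log2 fold changes were 1.27 ± 0.19 and 0.90 ± 0.21 (SE, edgeR adjusted p = 0.0121 and 0.0313). COX7C was not called without pEF 1 (1.18, adjusted p = 0.0551), and COX6B was not called with any 1 library left out. COX6B islands also held ends of ETV2, the gene of an endothelial and blood transcription factor, in every library.

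Among the isoform pairs, no member other than COX6A1, COX6B and the c-ring genes below passed. COX7A1, the isoform of heart and skeletal muscle, had 14.7 and 15.9 RPM in pgEpiSC and 73.8 and 17.1 in pEF. Its islands held an end of ZNF146 in every library and an end of CAPNS1 in the pEF libraries only. The pEF value rested on pEF 1, and the log2 fold change was -1.48 ± 0.69 (edgeR adjusted p = 0.154). Without pEF 2 it was -2.18 (adjusted p = 0.0324). COX7A2, the widely expressed isoform, had 20.1 and 19.4 in pgEpiSC and 16.2 and 18 in pEF (0.25 ± 0.21, adjusted p = 0.378). NDUFA4, once counted in complex I and now known as a complex IV subunit, and its hypoxia-induced relative NDUFA4L2 had log2 fold changes of 0.33 and -0.49 and did not pass (adjusted p = 0.249 and 0.427).

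The ATP synthase had 3 genes (17.6%) higher in pgEpiSC and 1 (5.88%) lower among 17, beside 20.3% and 19.8% of all genes. ATP5B, the catalytic beta subunit, had 104 and 98.1 RPM in pgEpiSC and 58.1 and 58.9 in pEF, with BAZ2A sharing its islands in all 4 libraries. The c-ring genes code for the same mature protein from separate loci. At all 3 both pgEpiSC values lay above both pEF values, and the share of all genes with no such overlap in RPM was not counted. In length it was 51.2% of all genes with end islands in all 4 libraries. ATP5G3 had 25.7 and 24.8 RPM in pgEpiSC and 12.8 and 12.9 in pEF, and ATP5G2 had 59.0 and 45.1 in pgEpiSC and 24.6 and 28.3 in pEF. The log2 fold changes were 0.84 ± 0.20 at ATP5B, 1.02 ± 0.20 at ATP5G3 and 1.02 ± 0.24 at ATP5G2 (SE, edgeR adjusted p = 0.0355, 0.0201 and 0.0344). ATP5G1, at 20.8 in each pgEpiSC library against 10.7 and 13.2 in pEF, just missed the threshold (0.84 ± 0.24, adjusted p = 0.0538). None of these 4 genes passed with any 1 library left out.

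ATP5S, which human nomenclature no longer counts as a subunit, was lower in pgEpiSC. It had 20.2 and 22.1 RPM in pgEpiSC and 98.9 and 41.3 in pEF, a log2 fold change of -1.65 ± 0.43 (edgeR adjusted p = 0.0429). Without pEF 1 the change was -0.99 (adjusted p = 0.0705), and the gene was not called without either pgEpiSC library. Among genes chosen after their values were seen, ATP5D had the longest pEF islands, at 38.4 and 31.2 kb, against 21.0 and 55.8 kb in pgEpiSC, and its reads did not pass (-0.23, adjusted p = 0.735). The ATP5D islands held ends of CBARP and MIDN in every library. ATP5J shares all its end islands with GABPA, the gene of a transcription factor known to act on respiratory chain promoters, and both had a log2 fold change of 0.01.

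By length, 24 of the 79 genes were longer in pgEpiSC and 1, UQCR10, was longer in pEF (limma with trend on log2 of kb plus 1, adjusted p under 0.05). The background was 25.9% of 14195 genes longer in pgEpiSC and 9.45% longer in pEF, and the median log2 fold change was 0.63 for the respiratory chain genes and 0.51 for all genes. After a shift of each library to its median gene, 8 were longer in pgEpiSC and 5 in pEF, that is 10.1% and 6.33%, beside 15.8% and 17.0% of all genes. Without pgEpiSC 1, pgEpiSC 4, pEF 1 and pEF 2 in turn, 13, 13, 2 and 2 were longer in pgEpiSC and 0 in pEF, beside 23.1%, 21.9%, 2.68% and 3.10% of all genes longer in pgEpiSC. In those fits the share of all genes longer in pEF was also lower than with all libraries. With islands of at least 2-fold only, the median log2 fold change was 0.39, against -0.16 over all genes. Both reads and length called 17 genes higher in pgEpiSC, and the share over all genes was not counted. At 13 genes, or 16.5%, islands were listed at both ends in both pgEpiSC libraries and at 1 end in both pEF libraries, as at 11.3% of all genes. At 5 genes, or 6.33%, the reverse was found, as at 4.46% of all genes. These shares were not tested, nor was their part in the difference in length.

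Read density, a quantity added after reads and lengths were seen, ran the other way. Of the 78 genes, 0 were denser in pgEpiSC and 25 in pEF (limma with trend, adjusted p under 0.05), beside 2.34% of all genes denser in pgEpiSC and 42.4% in pEF. At an unadjusted p under 0.05, limma gave 1 and 31. The median log2 fold change of density was -0.39, against -0.60 over all genes. Centred on the median gene, 9 were denser in pgEpiSC and 2 in pEF, that is 11.5% and 2.56%, beside 9.54% and 7.60% of all genes. Without pgEpiSC 1, pgEpiSC 4, pEF 1 and pEF 2 in turn the uncentred count for pEF was 11, 8, 16 and 24, beside 21.3%, 22.1%, 32.7% and 39.5% of all genes. Over all genes tested, 16.6% had a density change above 0 and 42.4% were called denser in pEF. The shares among all genes with more reads in pgEpiSC were not counted. Of the 21 genes with more reads in pgEpiSC, 15 had a density change below 0. The 6 of these called denser in pEF were ATP5G2, COX7C, NDUFA7, NDUFS6, NDUFV1 and NDUFV3. Summed over the end islands of a gene, these 6 genes had more reads over a greater length at lower density. At ATP5G2, NDUFS6, NDUFV1 and NDUFV3 islands were listed at both ends in both pgEpiSC libraries and at 1 end in both pEF libraries. At those genes the pgEpiSC sum takes in an end without an island in pEF.

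**Figure D4:**
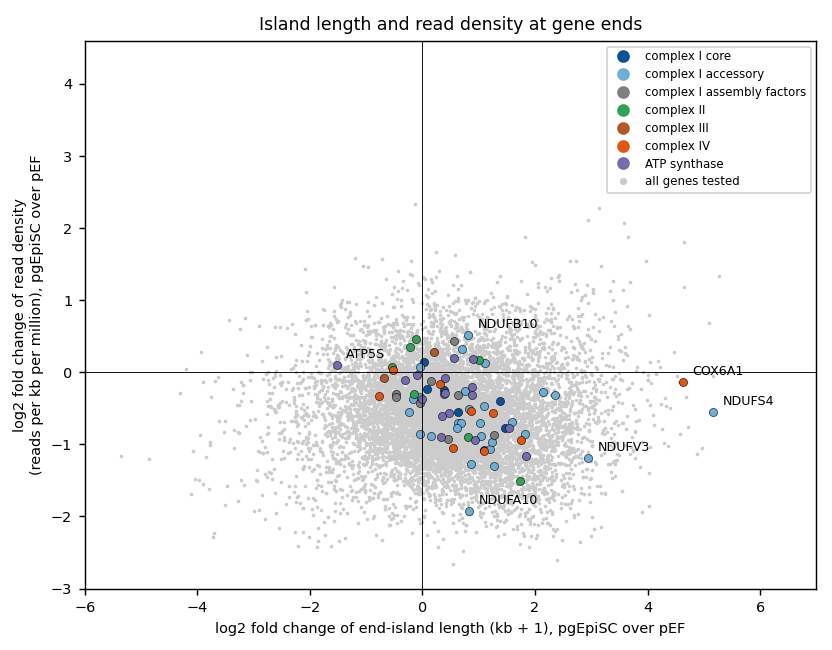
Log2 fold change of read density (RPM per kb, y) against log2 fold change of end-island length (kb plus 1, x), pgEpiSC over pEF, with respiratory chain genes coloured by complex and all genes tested in grey. Most coloured points lie right of 0 and below 0, as the grey cloud does, NDUFB10 lies above 0 on both axes, and NDUFA10 is the lowest in density at -1.93.

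Enrichment over input was weaker in pgEpiSC at these genes, as at all genes. The median fold, scaled as in the deposited lists, was 3.11 and 2.87 in pgEpiSC and 7.95 and 7.31 in pEF, beside 2.47 and 2.22 in pgEpiSC and 7.21 and 6.65 in pEF over all genes. Relative to the median gene of each library, 5 of 78 genes were more enriched in pgEpiSC and 2 in pEF (limma with trend, adjusted p under 0.05), against backgrounds of 6.5% and 5.15%. With the deposited scaling, 0 were more enriched in pgEpiSC and 73 in pEF, and so were 11 and 9819 of all 10761 genes. Relative to the median gene again, the 5 were UQCRB (log2 1.30), NDUFAF4 (1.16), SDHB (1.1), NDUFB10 (0.99) and SDHD (0.91), and the 2 were NDUFA10 (-1.13) and SDHAF2 (-0.87). The choice of scaling moves the log2 value of every gene alike, by 1.55, so these directions are relative to the median gene only: with the deposited scaling UQCRB, NDUFAF4, SDHB, NDUFB10 and SDHD were below 0. Without pgEpiSC 1, pgEpiSC 4, pEF 1 and pEF 2 in turn, 0, 2, 4 and 6 genes were more enriched in pgEpiSC relative to the median gene, and 1, 0, 1 and 0 in pEF, beside 1.64%, 1.60%, 8.44% and 8.29% of all genes more enriched in pgEpiSC.

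Respiratory chain genes are short and often lie beside other genes, so that an end island can belong to a neighbour as well. Their median length was 7.98 kb against 25.7 kb for all genes, and 42 of the 79, or 53.2%, had the end of another coding gene within 1 kb, against 30.4% of all genes. End islands held another coding gene's end for 47 and 49 of the genes in pgEpiSC and for 38 in each pEF library. That count was not made over all genes. For 29 genes they held none in any library, and of the 28 of these that were tested 8 were higher in pgEpiSC and 1 lower by reads, with a median log2 fold change of 0.34. Over all genes tested, 20.3% were higher and 19.8% lower, and the share among all genes without a neighbour's end in their islands was not counted.

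The lists of other mitochondrial genes and of glycolysis and lactate genes were also chosen with earlier results of these data known. The background by reads was 20.3% of all genes higher in pgEpiSC and 19.8% lower. The difference between lists was not tested. Among other assembly factors and electron carriers of the chain, 2 of 19 (10.5%) were higher in pgEpiSC and 3 (15.8%) lower. Their median log2 fold change of reads was -0.39. The tricarboxylic acid cycle had 1 of 15 (6.67%) higher and 1 (6.67%) lower. The mitochondrial ribosome had 10 of 70 (14.3%) higher and 9 (12.9%) lower. Regulators of mitochondrial genes had 3 of 19 (15.8%) higher and 2 (10.5%) lower. Glycolysis and lactate genes had 6 of 22 (27.3%) higher and 3 (13.6%) lower. Of the lactate dehydrogenase genes, LDHB was higher (1.84) and LDHA lower (-1.04), as edgeR log2 fold changes past the threshold. SLC2A3, a glucose transporter, was also higher (3.89), and HK2, a hexokinase, was lower (-1.33).

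**Figure D5:**
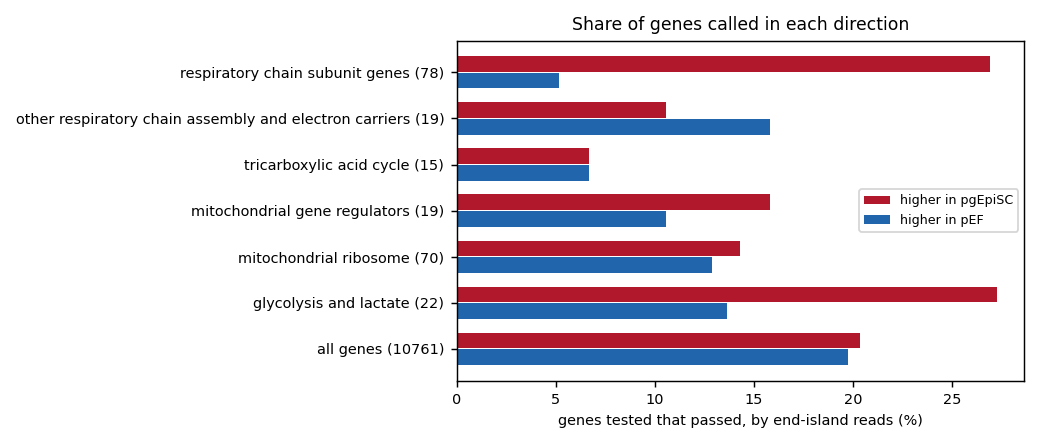
Share of genes tested (%) that passed by end-island reads in each gene list and over all genes, higher in pgEpiSC (red) and higher in pEF (blue), with the number tested in parentheses. The respiratory chain genes show 26.9% and 5.13%, and all genes 20.3% and 19.8%.

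Among the regulators known for these genes, PPARGC1B, a coactivator of mitochondrial genes, had the largest difference. It had 470 and 368 RPM over 161.6 and 112.2 kb in pgEpiSC and 3.51 and 2.68 RPM over 2.4 and 2.6 kb in pEF (log2 fold change 7.13 ± 0.32, edgeR adjusted p = 0.00509). ESRRA, a nuclear receptor that works with such coactivators, had 71.4 and 67.0 RPM in pgEpiSC and 35.9 and 27.3 in pEF (1.19 ± 0.20, adjusted p = 0.016), and the end islands of its relative ESRRG were listed in pgEpiSC only. NRF1, a factor that binds many respiratory chain promoters, was lower, at 32.4 and 29.1 in pgEpiSC against 64.8 and 66.1 in pEF (-1.04 ± 0.19, adjusted p = 0.0184). TFAM, which packages mitochondrial DNA, and PPARGC1A had log2 fold changes of 0.35 and 0.28 and did not pass (adjusted p = 0.279 and 0.36). CYCS, the gene of cytochrome c, had 21.1 and 26.7 RPM in pgEpiSC and 45.7 and 33.1 in pEF (-0.66 ± 0.25, adjusted p = 0.0964).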

How the data were processed

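The H3K27ac ChIP-seq libraries each came with 1 deposited list of islands, 4 in all; input reads stand in the same lists. BWA 0.7.15, SAMtools 0.1.19 and SICER 1.1 are named per the submitters' processing notes; duplicate and mapping filters, which decide how reads shared with near-identical copies were counted, are not given in the sources used here. Deposited count columns hold whole ChIP and input reads for each island. The deposited p-value columns (p and FDR) are those of each island against input, and FDR reached 1, so no limit had been applied. The fold in the deposited lists is a ratio, ChIP over input reads, with library sizes scaled by the authors.

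The genome build is not named in the labels or lists. Gene ends of the RefSeq Sscrofa11.1 table fell inside islands with a higher frequency than points shifted by 20 kb, on 18 of 18 chromosomes, and that table, which gives no strand, was used for gene names and distances. Genome sequence was not used here, so promoter motifs and start-site windows, which had been planned, were not analysed and no sequence is shown.

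For each gene, the ChIP reads, input reads and whole length of islands touching 2 kb on either side of either gene end were summed. Reads were tested over genes with end islands in all 4 libraries with edgeR 4.0.16 (quasi-likelihood, TMM, library size the ChIP reads in islands of chromosomes 1 to 18; the SE is the log2 fold change over the root of F). Length (log2 of kb plus 1, genes with an end island in at least 1 library), ChIP over input (log2 after adding 1 read to each, each library centred on its median gene) and density were tested with limma 3.58.1 with trend, in R 4.3.3. p-values were Benjamini-Hochberg adjusted over all genes tested, and the threshold was 0.05. The fits were tested on simulated data. DESeq2 1.42.0 was an alternative; others changed the islands, windows, filters, scaling and libraries. With 2 libraries of each type the precision is low, and intervals from reads would cover counting error only.

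The members and lists were chosen with earlier results of these data known. Genes were named by rule: isoform pairs, SDHA to SDHD, up to 3 called members per direction by reads in each role group, and the densest and least dense member of each complex. Others were named after their values were seen. The values of 1 gene are not reported here or drawn in the plots of single genes; it is included in the counts.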

Additional observations from a re-analysis of the deposited data

How the results depend on the processing

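Reads. Genes lower in pgEpiSC numbered 2 when genes with an end island in at least 1 library were tested and 2 with islands of at least 2-fold, against 4. These were 2.53%, 2.86% and 5.13%, beside 16.9%, 20.2% and 19.8% of all genes. Leaving out each library in turn gave 7 to 12 genes higher and 0 to 2 lower. DESeq2 gave 24 higher and 6 lower, that is 30.8% and 7.69%, beside 25.4% and 24.3% of all genes. Of the 21 genes higher, 10 were called in each of the 8 alternatives that kept all libraries, and 3 in all 12, counting a gene left without islands as not called. Length. Genes longer in pEF numbered 3 with 1 kb windows and 4 over the gene body with flanks of 10 kb, against 1. These were 3.80%, 5.06% and 1.27%, beside 9.23%, 12.5% and 9.45% of all genes. Centring gave 8 longer in pgEpiSC and 5 in pEF, and islands of at least 2-fold gave 12 and 3. The 12 and 3 were 15.4% and 3.85%, beside 10.7% and 17.1% of all genes. With that limit the median log2 fold change of length was 0.39, and over all genes it turned to -0.16. Leaving out each library gave 2 to 13 and 0 to 0, with 2 without pEF 1 or pEF 2. Length log2 fold changes turned at ATP5E (-0.70) and NDUFS7 (-1.71, limma adjusted p = 0.0237) with islands of at least 2-fold, and at ATP5G3 (-0.17) and NDUFB8 (-0.29) over the gene body. NDUFS4 was the only gene called longer in all 12 alternatives. Enrichment over input. Genes more enriched in pEF numbered 1 with 1 kb windows and 1 with islands of at least 2-fold, against 2. These were 1.28%, 1.43% and 2.56%, beside 5.03%, 4.09% and 5.15% of all genes. The deposited scaling gave 0 and 73; it lowers every gene's log2 value by 1.55, which alone sets the sign at NDUFAF4 (-0.39), NDUFB10 (-0.57), SDHB (-0.45), SDHD (-0.65) and UQCRB (-0.25). Leaving out each library gave 0 to 6 in pgEpiSC and 0 to 1 in pEF. Density. Centring gave 9 denser in pgEpiSC and 2 in pEF, and leaving out each library gave 0 and 8 to 24. Presence. With islands of at least 2-fold, 2 genes had end islands in pEF only and 1 in no library, as 12.4% and 16.0% of all genes did. Leaving out each library gave 0 to 1 in pgEpiSC only and 0 to 1 in none. The cause of these shifts was not tested, other than that a fit without a library has fewer samples and assumes that the lone library varies like those of the other type. No paired analysis was possible because the types share fewer than 2 replicate numbers. The start-site alternative was not run. Depth and 2 libraries of each type limit small differences: a gene that missed the threshold is not shown to be equal.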
